A study of Mus musculus with 6 samples.

Results

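The miRNAs described here are the miRBase entries from miR-6896 to miR-7094, a block of mouse names that consists mostly of predicted mirtrons. All rows of the deposited table with a name in this range were taken, whatever their values. This gave 250 of 1364 miRNAs, or 18.3% of the list, with 134 of the 3p arm and 116 of the 5p arm from 170 named hairpins. The small RNAs came from the nucleus accumbens (NAc) of adult male C57BL/6N mice, 7 to 8 weeks old when obtained, that had been trained in conditioned place preference (CPP), a test in which an animal learns to prefer the compartment where it received a drug. The morphine group received 10 mg/kg morphine in alternation with saline for 6 days, and the saline group received saline. Tissue was taken 0.5 h after the preference test on day 7. There were 3 libraries per group. The sample records give 6 mice per group, or 2 per library, while the published description names 1 mouse per library, so pooling cannot be settled.

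Most miRNAs are cut out of a primary transcript by Drosha and then from a hairpin by Dicer. A mirtron skips the Drosha step, because the spliceosome releases the hairpin as part of an intron, which is debranched, folded and passed to Dicer. In a tailed mirtron the hairpin sits at one end of a longer intron and the surplus intron is trimmed away. Where the tail is on the 5′ side, the 3p arm carries the polypyrimidine tract and the terminal AG of the 3′ splice site.

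Mature sequences were available from RefSeq (GRCm38.p6) for 224 of the 250 entries. The entries below are among those with the largest changes or the highest counts and are printed 5′ to 3′, with the seed, bases 2 to 8, in capitals.
miR-7043-3p: aCUGUGCCucucuguuuucag
miR-7080-3p: cAGGCUCAccccuccguucccu
miR-7000-3p: cACCCACCugccuguccuccag
miR-6915-3p: cAACUUCCuuccucgugcccag
miR-7019-3p: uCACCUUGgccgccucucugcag
miR-7056-3p: cCUCACCUgucucccaccacag
miR-6944-3p: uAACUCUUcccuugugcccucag
miR-6940-3p: uUACCUUCcgugcuugcccgcag
miR-6899-3p: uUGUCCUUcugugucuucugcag
miR-7073-5p: uGGGGGAAuugaaagacuauga
These 10 have 10 different seeds. After the first bases, the 3p sequences are rich in C and U, and all but miR-7080-3p end in AG, while the 5p sequence of miR-7073 is rich in G and A. Among 3p entries named below but not printed, miR-7047-3p, miR-6945-3p and miR-6994-3p do not end in AG either. Among the 224 sequences there were 212 different seeds, and the largest group with a common seed held 3 entries, miR-6922-5p, miR-6993-5p and miR-7008-5p. There were 21 entries with a seed in common with a miRNA outside the range, such as miR-6932-3p and miR-7039-3p, which have the seed CUGUUCU of miR-26a-2-3p and miR-26b-3p. None of the 224 had a mature sequence identical to that of another row with a RefSeq sequence. The other 26 entries could not be compared.

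The hairpins of 3 entries are shown to place these arms in their introns, with the last bases, the AG of the 3′ splice site, in capitals.
Mir7043: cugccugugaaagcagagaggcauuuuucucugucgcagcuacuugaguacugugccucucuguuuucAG
Mir7080: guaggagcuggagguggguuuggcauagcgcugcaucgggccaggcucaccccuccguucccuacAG
Mir6944: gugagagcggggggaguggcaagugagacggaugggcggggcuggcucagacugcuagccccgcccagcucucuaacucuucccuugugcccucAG
Mir7043 lies on the minus strand at chr6:116645978-116646047 of GRCm38, at the end of an intron of Rassf4, a Ras association domain protein, with 1519 bases of intron before it. Mir7080 (chr8:123130106-123130172, plus strand) has no tail and fills a whole intron of Cpne7, a copine. Mir6944 (chr13:55477681-55477776, minus strand) fills a whole intron of Dbn1, which encodes the dendritic spine protein drebrin.

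The hairpin positions behind the label of predicted tailed mirtrons were compared with the GENCODE vM21 annotation. Where several introns held a hairpin, the intron with the nearest end was used. No reads of these libraries enter this comparison, so it describes the label and is not a test of it. Of 150 hairpins with a RefSeq sequence, 139 (92.7%) ended exactly on the last base of an annotated intron on their own strand. Among 526 hairpins of all other miRNAs in the table, 16 (3.04%) did. Of the 139, 133 had a tail on the 5′ side, with a median of 505 bases and a range from 7 to 36205 bases, and the longest was that of Mir6899 in Klf7, a transcription factor gene. A further 6 (Mir6944, Mir6958, Mir7058, Mir7068, Mir7080 and Mir7091) spanned the intron from its first to its last base, as conventional mirtrons do. There were 3 hairpins (Mir6936 in Sirt7, Mir6973b in Gfra4 and Mir6977 in Ptprs) that began on the first base of the intron and left a tail on the 3′ side. The remaining 8 met neither end.

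**Figure D1:**
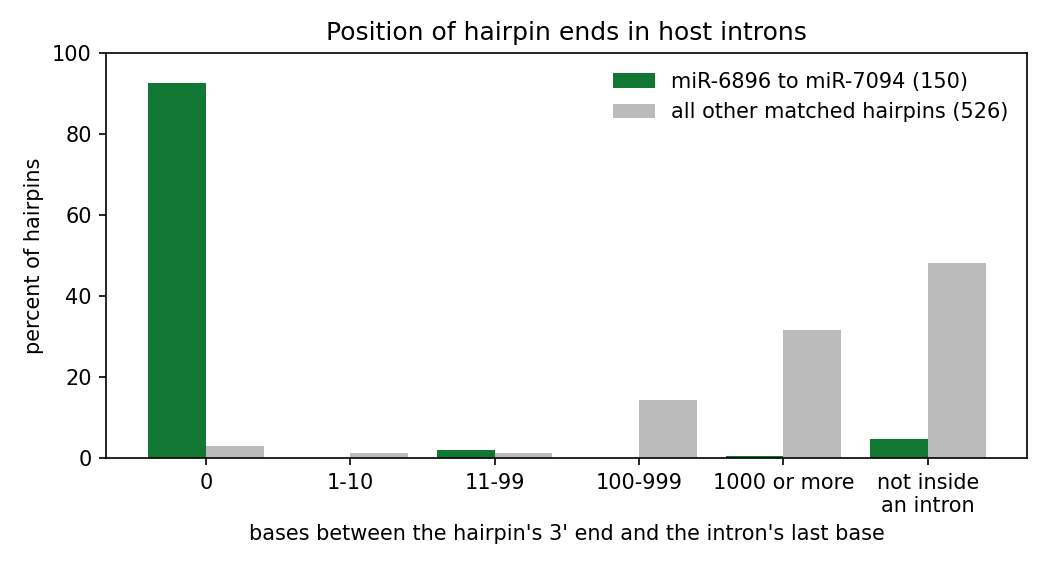
Percent of hairpins (vertical axis) by the number of bases between the hairpin's 3′ end and the last base of the host intron (horizontal axis). Of the miR-6896 to miR-7094 hairpins 92.7% have 0 bases between them, against 3.04% of the other hairpins, which mostly lie deep inside an intron or outside introns.

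The RefSeq sequences of the mature 3p arms mostly carried the splice site in their own letters, while the ends of reads were not examined. Of 118 3p entries with a RefSeq sequence 95 (80.5%) ended in AG, against 39 of 404 (9.65%) such 3p arms outside the range. The 5p entries ended in AG in 10 of 106 cases (9.43%). Of the 109 3p entries on hairpins that end with the intron, 89 ended on the last intron base itself and 16 ended 1 or 2 bases before it. The median share of C and U was 72.7% in the 3p entries and 33.3% in the 5p entries, against 54.5% and 50% in the other 3p and 5p arms. The median GC content was 57.1% in the entries and 50% in the other miRNAs with a RefSeq sequence. Of the 150 hairpins 32 also overlap an exon of a transcript on the same strand, where reads from both sources cannot be told apart.

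These miRNAs were rare. Together they held 6646 counts in the 6 libraries, or 0.0150% of all counts, and the median entry had 6 counts in total, against 77.5 for the other miRNAs. There were 94 entries with at least 10 counts in total, 27 with at least 50, and 76 with only 1 or 2. A count was present in every library for 40 entries and in 1 library only for 73, of which 25 were found only in saline replicate 3. The 12 most abundant entries, 10 of them 3p arms, took 55.2% of these counts and miR-6944-3p alone took 21.6%. The 6 whole-intron hairpins gave 28.9% of the counts through 9 entries, and the 133 hairpins with a 5′ tail gave 58.0% through 192 entries. For the 80 hairpins with both arms listed, the 3p arm had the higher total in 40, the 5p arm in 37, and the arms were equal in 3.

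Library totals ran from 4183333 to 9842050 counts. A level of 3 counts, the limit that a count of 0 allows, corresponded to 0.315 to 0.549 counts per 1000000 (CPM, after TMM scaling), and such limits cover counting error only. Fold values given at this floor set a group without counts to 3 counts and take the counts of the other group as exact. They leave out the counting error of that other group and are not lower limits. Saline replicate 2 stood apart from the other saline libraries. Its TMM factor was 0.80 where theirs were 1.31 and 1.32. The morphine libraries had factors of 0.92, 0.94 and 0.84, so by this measure saline replicate 2 was nearer to them. Leaving saline replicate 2 out raised the number of DEmiRNAs among all miRNAs from 264 to 492. In the entries with at least 10 counts, it was the lowest saline library for 52 of 94 (55.3%), and in the other miRNAs for 306 of 805. Several markers of cell types and tissues also moved with the groups. The brain miRNAs miR-128-3p and miR-9-5p were abundant in every library, at 55107 CPM or more. Neuronal miR-124-3p was at 4495 to 7795 CPM in the saline libraries and at 1324 to 1730 CPM in the morphine libraries, without overlap. miR-128-3p and miR-9-5p did not show this order, and their groups overlapped. miR-128-3p was at 55107 to 67770 CPM in the saline libraries and at 67659 to 104566 CPM in the morphine libraries. miR-9-5p was at 60964.5 to 211199 CPM in the saline libraries and at 95872 to 112157 CPM in the morphine libraries. Of the markers of other tissues, 3 were lower in every morphine library than in any saline library. They were miR-204-5p of the choroid plexus (1225 to 2576 against 627 to 744 CPM), miR-122-5p of the liver (7.95 to 56.4 against 5.18 to 5.75 CPM) and miR-206-3p of muscle (14.1 to 71.6 against 5.31 to 10.7 CPM). Blood miR-451a went the other way, from 60.2 to 163 CPM in the saline libraries to 218 to 423 CPM in the morphine libraries. None of the 7 markers was at 0 in any library. Their part in the results was not tested. In bulk tissue, fewer cells of a type and less RNA per cell cannot be told apart.

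The first comparison asked whether the class as a whole differed between the morphine and saline groups. The summed 5p level was 39.9, 33.7 and 43.2 CPM in saline replicates 1, 2 and 3. It was 22.0, 29.5 and 21.4 CPM in morphine replicates 1, 2 and 3. The means were 39.0 ± 4.80 CPM (SD, n = 3) and 24.3 ± 4.50 CPM (SD, n = 3), a log2 ratio of -0.68, and every saline library was above every morphine library. With library totals in place of TMM the log2 ratio was -1.05, and the groups then overlapped, since saline replicate 2 had 27.0 and morphine replicate 2 had 27.6 CPM on that scale. The summed 3p level was 174, 55.8 and 163 CPM in saline replicates 1, 2 and 3. It was 91.3, 124 and 110 CPM in morphine replicates 1, 2 and 3. The groups overlapped because saline replicate 2 was the lowest of all 6 libraries. The 3p means were 131 ± 65.4 CPM (SD, n = 3) and 109 ± 16.6 CPM (SD, n = 3), a log2 ratio of -0.27. Leaving out saline replicate 2 gave -0.64, while leaving out saline replicate 1 or 3 gave -0.014 and -0.083, so that almost no difference was left. No test was made on these sums, which are scores over the entries.

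Saline replicate 2 also differed in the balance of the arms. The 3p arm held 62.3% of the counts there (95% exact binomial interval 58.3 to 66.2%, which covers counting error only, since amplified reads are not independent molecules). In the other 5 libraries the share ran from 79.1% (77.2 to 80.9%) in saline replicate 3 to 83.7% (81.1 to 86.2%) in morphine replicate 3, so that the arm balance of the morphine libraries was close to that of saline replicates 1 and 3.

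The number of entries detected was compared after each library was thinned to 4183333 counts, the smallest total. At least 1 count was found for 122, 98 and 152 entries in saline replicates 1, 2 and 3. It was found for 88, 89 and 91 entries in morphine replicates 1, 2 and 3. All saline libraries were thus above all morphine libraries. The other miRNAs did not show this order, with 787, 787 and 811 detected with saline and 817, 823 and 811 with morphine. They were not matched to the entries for depth, with a median of 77.5 counts in total against 6. Whether the order is particular to the entries was therefore not tested. Thinning gives equal library totals and does not use TMM. On the library total scale the summed levels of each arm overlapped between the groups. Before thinning, the groups overlapped, with 122 to 174 entries in the saline libraries and 116 to 128 in the morphine libraries. Like the sums, these numbers were not tested.

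**Figure D2:**
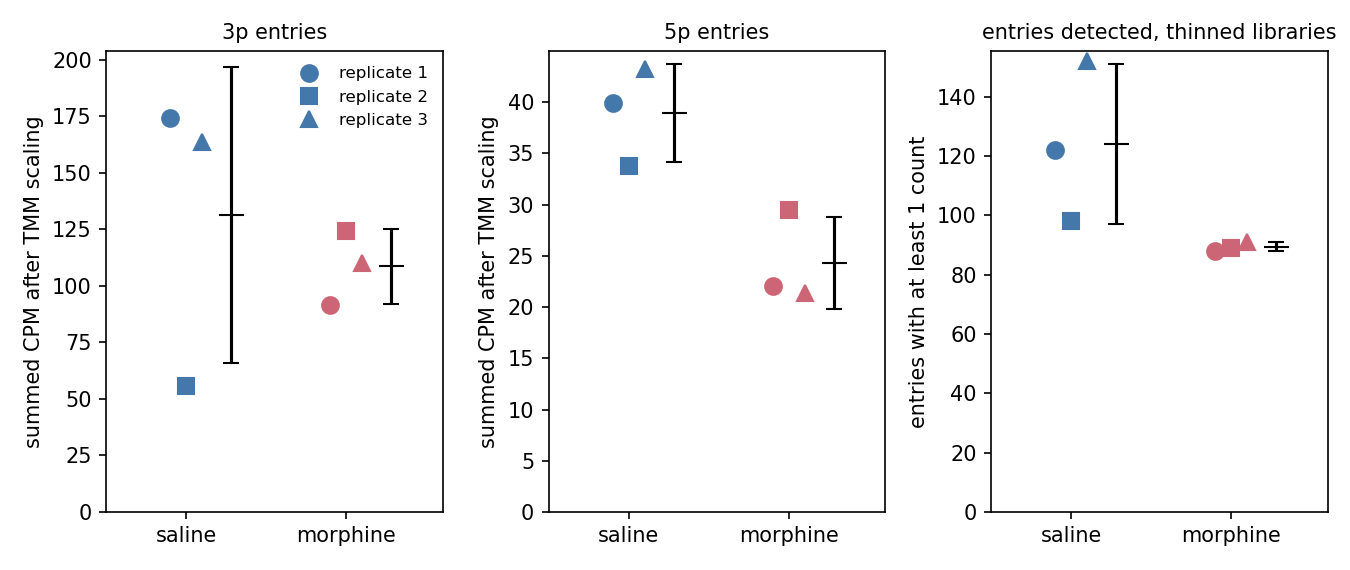
Summed CPM of the 3p entries (left) and the 5p entries (middle) and the number of entries with at least 1 count after thinning to 4183333 counts (right), with 1 point per library and the mean ± SD of the 3 libraries of each group as a bar. Saline replicate 2 (square) lies at 55.8 CPM in the left panel, below all morphine libraries, while in the other panels the groups do not overlap.

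Single entries were then tested with edgeR's quasi-likelihood test, fitted on all 1364 miRNAs. An entry counted as a DEmiRNA where its log2 fold change (log2FC, morphine minus saline) reached 0.58 in size with an unadjusted p no higher than 0.05, which are the published study's criteria. Among all miRNAs, 19.4% met these criteria, 9.68% as higher and 9.68% as lower in the morphine group. Among the 250 entries 16 did, 3 as higher and 13 as lower. After Benjamini-Hochberg adjustment across the table, 3 entries stayed under 0.05, against 5.21% of all miRNAs. With library totals 2 entries were higher and 24 lower, against 7.62% and 14.2% of all miRNAs. Without saline replicate 2 it was 8 higher and 27 lower, against 20.9% and 16.1%. With DESeq2 1 was higher and 11 were lower, against 7.77% and 9.46%. In the same order, 9, 18 and 5 entries had an adjusted p under 0.05, against 11.7%, 29.1% and 11.4% of all miRNAs.

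Calls were few among the entries with low counts. None of the 76 entries with 1 or 2 counts met the criteria, a depth for which no share of all miRNAs is given. Of the 156 entries with under 10 counts 4 met the criteria (2.56%). At that depth 3.47% of 259 other miRBase entries and 10% of 50 of the authors' predicted miRNAs met the criteria. Of the 94 with at least 10 counts 12 met them, 1 as higher and 11 as lower, while among all 899 miRNAs with at least 10 counts 27.4% did, 13.7% in each direction. Of the 27 with at least 50 counts 6 met them (22.2%), against 33.0% of all miRNAs of that depth. The median log2FC was -0.52 over the 94 entries and -0.15 over the 899 miRNAs. Under library total scaling these medians were -0.89 and -0.40, and without saline replicate 2 they were -0.75 and 0.15. The fold change was below 0 for 64 of the 94 (68.1%) and for 55.3% of the 899. Over all 250 entries the median was -0.85, against -0.15 over all 1364 miRNAs. But 31 entries were at 0 in the whole saline group and 66 in the whole morphine group. With such a group at the floor of 3 counts, and the value set to 0 where the other group was below this floor, the median was 0. By the same rule it was 0 over all miRNAs as well. Values of the groups did not overlap for 30 of the 250 entries, 19 lower and 11 higher, against 22.1% of all miRNAs (9.9% lower and 12.2% higher).

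**Figure D3:**
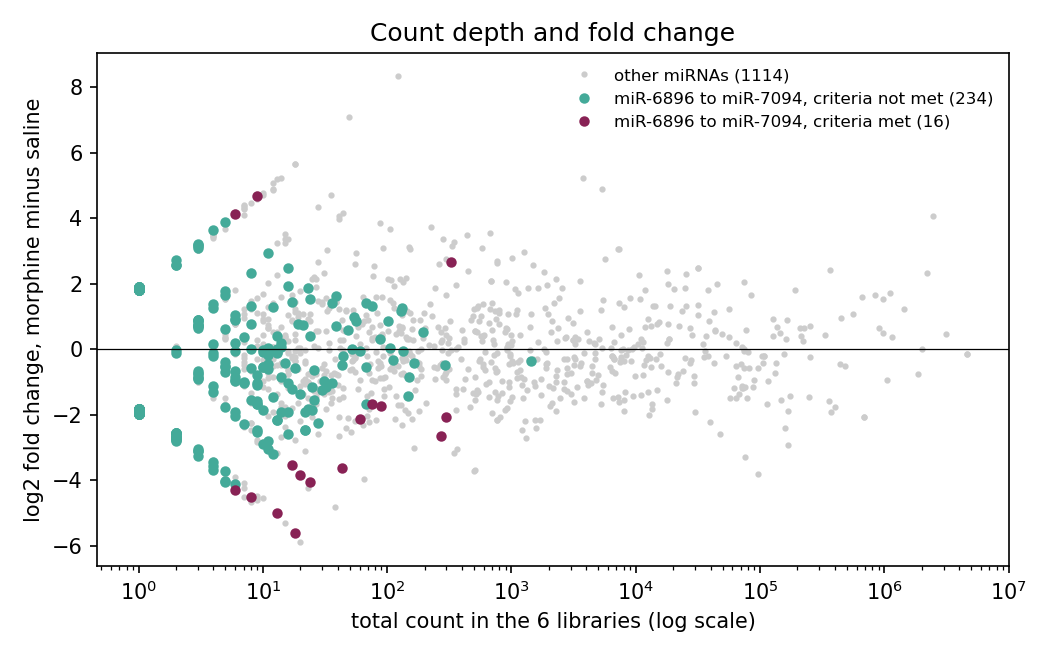
Log2 fold change (vertical axis, morphine minus saline) against the total count in the 6 libraries (horizontal axis, log scale) for the 250 entries and the 1114 other miRNAs. Most entries lie at the left with under 10 counts, where fixed counts form diagonal lines, and 13 of the 16 that met the criteria lie below 0.

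miR-7043-3p was upregulated. Its counts were 22, 11 and 5 in saline replicates 1, 2 and 3 and 120, 101 and 66 in morphine replicates 1, 2 and 3. Every morphine library was above every saline library, and the group means were 2.07 ± 1.79 CPM (SD, n = 3) with saline and 12.8 ± 2.25 CPM (SD, n = 3) with morphine. This gave a log2FC of 2.66, with an SE of 0.71 and a Benjamini-Hochberg adjusted p of 0.0331 in edgeR. It met the criteria, which use the unadjusted p, in all 16 alternative settings. The adjusted p was above 0.05 with filterByExpr (0.0522), with a minimum of 10 counts (0.082) and without saline replicate 3 (0.070), morphine replicate 1 (0.235) or morphine replicate 2 (0.0869). With 325 counts, miR-7043-3p was the second most abundant entry, and the only called entry with at least 10 counts that was higher in the morphine group.

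miR-7080-3p, from the whole-intron hairpin in Cpne7, was downregulated. It had 82, 11 and 140 counts in saline replicates 1, 2 and 3 and 12, 9 and 15 in morphine replicates 1, 2 and 3. Saline replicates 1 and 3 were high, at 15.01 and 14.7 CPM, while saline replicate 2, at 1.65 CPM, fell within the morphine range of 1.32 to 2.36 CPM, so the groups overlapped. The log2FC was -2.64 (SE 0.76, adjusted p = 0.0435, edgeR). It met the criteria in all 16 alternative settings. The adjusted p was above 0.05 with the edgeR exact test (0.0548), with filterByExpr (0.0822), with a minimum of 10 counts (0.0945) and with the replicate number as a block (0.202). It was also above 0.05 without saline replicate 3 (0.0579), morphine replicate 1 (0.346) or morphine replicate 2 (0.143). The mature form of miR-7080-3p ends 4 bases before the end of the intron.

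miR-6953-3p had 16, 4 and 20 counts in saline replicates 1, 2 and 3 and 1 count in each morphine library. All saline libraries were above all morphine libraries. Its level was 13.7 times lower in the morphine group (95% counting interval 4.36 to 69.1 on the pooled counts), with an adjusted p of 0.0437 by edgeR, and it met the criteria in all 15 settings in which it was tested. The adjusted p was above 0.05 with a minimum of 10 counts (0.0635), with a replicate block (0.175) and when any library but saline replicate 2 was left out (0.0888 to 0.264).

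miR-7047-3p had 107, 25 and 103 counts in saline replicates 1, 2 and 3 and 42, 9 and 13 in morphine replicates 1, 2 and 3. The lowest saline library (3.75 CPM) was below the highest morphine library (4.65 CPM), so the groups overlapped. It was lower in the morphine group with a log2FC of -2.07 (SE 0.71, adjusted p = 0.0804, edgeR). Without saline replicate 1 the log2FC was -1.36 and the criteria were no longer met. The 5p arm of this hairpin had 4, 2 and 0 counts with saline and none with morphine. It was 2.05-fold lower at the floor of 3 counts, and it also met the criteria. This call of miR-7047-5p was lost when any library but saline replicate 3 was left out, with fitted log2FC values of -3.17 without saline replicate 1 and of -4.21 to -4.34 without any one of the others. It was also lost with DESeq2 (-3.89), the edgeR exact test (-4.32), thinned counts (-4.01) and a replicate block (-4.38).

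A group of entries was counted in the saline libraries and nearly absent from the morphine libraries. miR-7000-3p, from an intron of the JNK scaffold gene Mapk8ip1, had 7, 0 and 11 counts in saline replicates 1, 2 and 3 and none in the morphine libraries. It was 6.16-fold lower in the morphine group, with the floor of 3 counts taken over the 3 libraries (adjusted p = 0.0768, edgeR). Saline replicate 2 was at 0 as well, and the call was lost without morphine replicate 1 (fitted log2FC -5.51). miR-6906-5p had 8, 2 and 13 counts against 0, 0 and 1, and was 23.6 times lower (counting interval 3.83 to 972). Its groups did not overlap, and its call was kept in all 15 settings, with fitted values of -4.06 in all 6 libraries, -5.99 without morphine replicate 3, which held the only count of its group, and -5.48 with thinned counts. miR-6915-3p, from an intron of Ankrd52, had 7, 4 and 8 counts against 0, 0 and 1, and was 19.5 times lower (3.10 to 810). Its call was lost without morphine replicate 1 (log2FC -3.21) and without morphine replicate 2 (-3.40), and without morphine replicate 3, which held its only count in that group, the value was -5.78. miR-6979-3p had 3, 2 and 11 counts against 1, 0 and 0, and was 16.4 times lower (2.55 to 689). This call was lost with a replicate block (-3.55) and without saline replicate 3 (-2.79), morphine replicate 2 (-3.11) or morphine replicate 3 (-3.17). The value was -5.25 without morphine replicate 1, which held the only count of its group.

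Other calls in the same direction were lost in more of the alternatives. miR-7004-5p had 3, 1 and 4 counts against none and was 2.74-fold lower at the floor of 3 counts. Its call was lost when any library but saline replicate 2 was left out, with fitted values from -4.20 to -4.54. miR-7019-3p, from an intron of the mitochondrial kinase gene Pink1, had 13, 7 and 30 counts with saline and 0, 4 and 6 with morphine, without overlap in CPM. Its log2FC was -2.14 (SE 0.95, adjusted p = 0.209, edgeR), and it missed the criteria without saline replicate 3 (-1.70), morphine replicate 1 (-1.42) or morphine replicate 2 (-2.24). miR-7044-3p (15, 7 and 49 against 4, 7 and 8 counts), in Rasgef1a, and miR-7083-5p (18, 9 and 30 against 7, 9 and 2 counts), in Dock6, had log2FC values of -1.73 (SE 0.79) and -1.67 (SE 0.79). Only the second was without overlap, by 1.35 against 1.32 CPM in the replicates numbered 2. The call of miR-7044-3p was lost without saline replicate 3 (-0.99) or any morphine library (-1.29 to -2.03). That of miR-7083-5p was lost without saline replicate 1 (-1.37), saline replicate 3 (-1.42), morphine replicate 1 (-1.52) or morphine replicate 3 (-1.31). Thinning all libraries to the smallest total also ended the calls of miR-7004-5p (-3.95), miR-7019-3p (-1.88) and miR-7044-3p (-1.34). DESeq2 ended that of miR-7004-5p (-4.00), a minimum of 10 counts that of miR-7019-3p (-2.19), and leaving out the authors' predicted miRNAs that of miR-7083-5p (-1.63). A replicate block ended the calls of miR-7004-5p (-4.52), miR-7044-3p (-1.58) and miR-7083-5p (-1.72).

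The other 2 entries called higher rested on few counts. miR-6908-3p, from an intron of the pyridoxal kinase gene Pdxk, was at 0 with saline and had 2, 3 and 4 counts with morphine. This is 2.92-fold higher at the floor of 3 counts. The call was lost with DESeq2 (3.95), with a replicate block (4.78) and without saline replicate 3 (4.63) or morphine replicate 3 (4.36). miR-6946-5p, in Sec24c, a coat gene of vesicle export, had none against 1, 3 and 2 counts, 1.95-fold higher at the same floor. Its call was lost in 12 of 14 settings, among them leaving out any library but morphine replicate 1, with fitted values from 3.73 to 4.25.

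**Figure D4:**
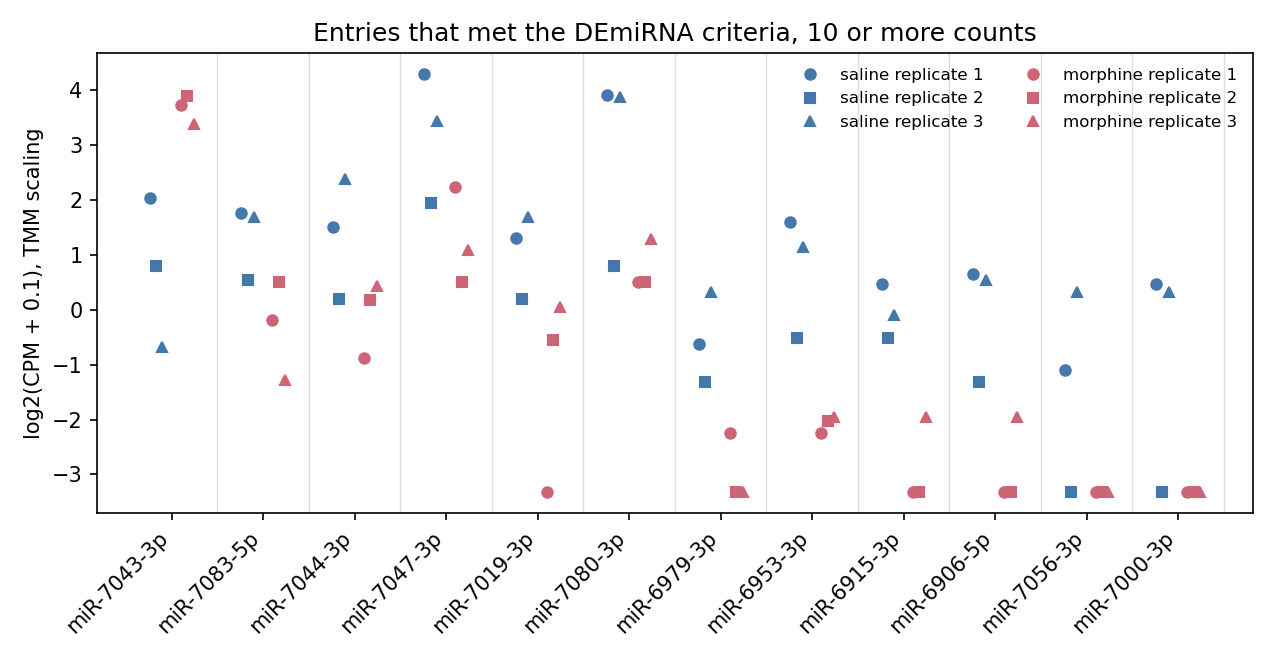
Level of the 12 entries that met the DEmiRNA criteria and had at least 10 counts in total, as log2(CPM + 0.1) in each library (vertical axis), ordered from the highest to the lowest log2FC. miR-7043-3p is the entry higher in the morphine group, and points at the lower edge are libraries with 0 counts.

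The most abundant entry, miR-6944-3p of the drebrin intron, did not differ beyond the spread between libraries. Its counts were 308, 69 and 440 in saline replicates 1, 2 and 3 and 140, 261 and 220 in morphine replicates 1, 2 and 3, with a log2FC of -0.36 (SE 0.60, adjusted p = 0.752, edgeR). Saline replicate 2 was the lowest library at 10.3 CPM, below the morphine range of 15.5 to 38.2 CPM. Without it the log2FC was -0.80 and the criteria were met. The sign changed, to 0.16 and 0.043, without saline replicate 1 and without morphine replicate 1. miR-6940-3p, in Cep170b, had 53, 17 and 103 counts against 28, 47 and 42. Its log2FC was -0.48 (SE 0.65), and -0.90 with the criteria met when saline replicate 2 was left out. It was close to 0 without saline replicate 3 (-0.080) or morphine replicate 1 (-0.097), and -0.19 without saline replicate 1.

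None of the other 7 abundant entries met the criteria with all 6 libraries. miR-6899-3p, in Klf7, had 37, 18 and 53 counts with saline and 11, 8 and 20 with morphine, a log2FC of -1.44 (SE 0.70, adjusted p = 0.261, edgeR). It missed the criteria by a small margin and met them in 9 of 16 alternatives, among them leaving out saline replicate 2 (-1.75) or morphine replicate 3 (-2.05). miR-7073-5p, in Cnot1, a gene of the mRNA deadenylation complex, was at 4.39, 4.20 and 4.61 CPM in the saline libraries and at 1.55, 4.25 and 1.57 CPM in the morphine libraries. Its groups overlapped at morphine replicate 2 and its log2FC was -0.84 (SE 0.67), or -1.46 without that library, -0.47 without morphine replicate 1 and -1.40 with thinned counts. miR-6945-3p, in Pdlim7, and miR-6896-5p, in the cytoskeletal linker gene Dst, had log2FC values of -0.42 (SE 0.69) and -0.06 (SE 0.69).

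On the higher side, miR-6994-3p, in the mRNA decay gene Patl1, had 6, 19 and 13 counts against 32, 43 and 19, without overlap in CPM. The log2FC was 1.26 (SE 0.69, adjusted p = 0.347, edgeR), and 1.76 with the criteria met without saline replicate 2. miR-6952-3p had 15, 4 and 19 against 45, 34 and 12 counts, with a log2FC of 1.15 (SE 0.73), 1.67 with the criteria met without saline replicate 1, and 0.76 without saline replicate 2. miR-7015-3p (22, 7 and 52 against 47, 34 and 33 counts) had a log2FC of 0.54 (SE 0.67), which was 0.10 without saline replicate 2, 1.08 without saline replicate 3 and 0.062 with library totals. Its 3 morphine libraries lay between 4.98 and 5.20 CPM while the saline libraries ran from 1.05 to 5.45 CPM.

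The published study drew 2 of these entries in its network of lncRNAs, miRNAs and mRNAs, a choice made from these same libraries. miR-7056-3p lies at the end of an intron of Ptpn5, which encodes the striatal-enriched tyrosine phosphatase STEP, at chr7:47083166-47083224 on the minus strand. It had 2, 0 and 11 counts in saline replicates 1, 2 and 3 and none in the morphine libraries. At the group floor of 3 counts it was 4.45-fold lower (adjusted p = 0.145, edgeR). Saline replicate 3 held 11 of its 13 counts. Its call was lost with DESeq2 (-4.43), with the edgeR exact test (-4.98), with a replicate block (-4.71), without saline replicate 3 (-3.37) and without morphine replicate 1 (-4.90). miR-7071-5p, in an intron of Heatr3 behind a tail of 48 bases, had 4, 1 and 0 counts against none, 1.71-fold lower at that floor. It did not meet the criteria, and met them with library totals (-4.29), with upper quartile scaling (-4.24) and without saline replicate 3 (-4.60). Without saline replicate 1, which held 4 of its 5 counts, the fitted value was -2.29.

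Other mirtrons of the table were set beside these entries. Of 9 listed arms of miR-877, miR-1224, miR-702, miR-1981 and miR-3102, 3 were lower and 0 higher by the same edgeR criteria, where 9.68% of all miRNAs were called in each direction. All 3 were among the 8 arms with at least 10 counts, a depth at which 13.7% of all miRNAs were called in each direction. The 3 were miR-877-3p, miR-1224-5p and miR-702-3p. For miR-702-3p, with 41, 10 and 77 counts against 14, 6 and 9, the log2FC was -2.13 (SE 0.74), with saline replicate 2 within the morphine range. For miR-877-3p saline replicate 2 also lay within it, at 15.3 CPM against 12.6 to 16.7 CPM with morphine. The groups of miR-1224-5p did not overlap. Among 27 rows outside the range on hairpins that end exactly with an intron, 3 were lower and 0 higher, and 2 of these 3, miR-877-3p and miR-1224-5p, are in both lists. These 3 were among 17 rows of the second list with at least 10 counts. Of the 153 other miRBase entries numbered 5000 or more, 64 had at least 10 counts, and 2 of these were higher and 9 lower, beside 13.7% in each direction for all miRNAs of that depth. None of these counts was tested against that of the mirtron entries.

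Base composition moved with the fold change over all miRNAs, the entries included. For 734 miRNAs with a RefSeq sequence and at least 10 counts, Spearman's correlation of GC content with the log2FC was -0.36. Without saline replicate 2 the correlation was -0.59. Over the 83 mirtron entries among them it was -0.49. These are descriptions across miRNAs that come from the same 6 libraries, and miRNAs are not independent replicates. In the class with a GC content of 55% or more, the median log2FC was -1.09 over 38 entries and -0.63 over 182 other miRNAs. In the class from 45% to under 55% it was -0.083 over 37 entries and -0.17 over 264 others. Under 45% it was 1.10 over 8 entries and 0.39 over 205 others. The 10 entries called lower that have a RefSeq sequence had 59.1 to 68.2% GC, and the 3 called higher had 38.1, 47.6 and 59.1%. The part of base composition in the calls was not tested.

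**Figure D5:**
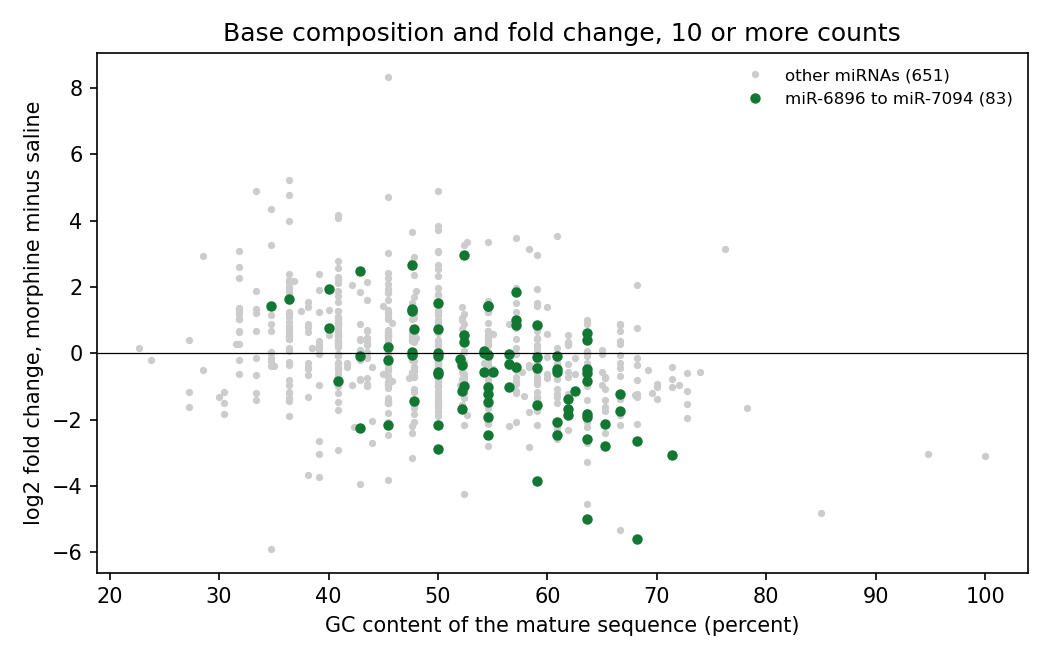
Log2 fold change (vertical axis, morphine minus saline) against the GC content of the mature sequence (horizontal axis, percent) for 83 entries and 651 other miRNAs with at least 10 counts in total. Entries with a GC content of 55% or more lie mostly below 0, with a median of -1.09.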

How the data were processed

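The authors kept clean reads of 15 to 35 nt, used Bowtie to take out those from other RNA classes and repeats, and identified miRNAs by comparison with miRBase. The genome build and miRBase release are not given in the sources used here. The deposited values are raw read counts per miRNA and library; the deposited TPM values, scaled to each library's total, were not used. Columns were matched to libraries by the sample titles.

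Counts were TMM-scaled and tested with edgeR 4.0.16 (quasi-likelihood, R 4.3.3) on all 1364 miRNAs and 6 libraries, with no covariate. Standard errors are the log2 fold change divided by the square root of F. Whether a library is 1 mouse or a pool is not settled, so p-values measure only the spread between these libraries. Named entries are the 12 most abundant, up to 10 called in each direction by p, those with an adjusted p under 0.05 and the 2 in the published network; 3 further called entries (miR-7044-3p, miR-7083-5p, miR-7047-5p) were named after their values were seen. Members, lists and rules were chosen with earlier results of these data known. Positions are RefSeq hairpins in GENCODE vM21 introns, both GRCm38. The position of 1 hairpin is not reported here. Simulated counts with known changes were used to test the fit. Alternatives were other scalings, DESeq2 1.42.0, the edgeR exact test, filters, thinning, a block and leaving out libraries.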

Additional observations from a re-analysis of the deposited data

How the results depend on the processing

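Over all miRNAs, 264 DEmiRNAs became 176 to 492 when single libraries were left out, with 492 without saline replicate 2, and the other settings stayed within 1.5 times. The 3 mirtron entries called higher became 1 with DESeq2, 1 with the filterByExpr filter and 1 to 8 with libraries left out. Of all miRNAs 9.68% were higher with all libraries, 7.77% with DESeq2 and 20.9% without saline replicate 2, the setting with 8 entries. The 13 called lower became 24 with library total scaling, 23 with upper quartile scaling, 2 with filterByExpr (19 entries tested) and 7 to 27 with libraries left out. Of all miRNAs 9.68% were lower in the main fit, 14.2% with library totals and 16.1% without saline replicate 2, the setting with 27 entries. In either direction, 297 of all miRNAs were called with upper quartile scaling and 186 of 594 with filterByExpr. The 3 at an adjusted p under 0.05 became 9 with library totals, 6 with upper quartile scaling, 5 with DESeq2 and 0 to 18 with libraries left out. Of all miRNAs 5.21% had an adjusted p under 0.05 in the main fit. The share was 11.7% with library totals, 11.4% with DESeq2 and 29.1% without saline replicate 2, the setting with 18 entries. The number of mirtron entries at that limit was 0 in edgeR with filterByExpr and with at least 10 counts in total, where 3 and 15 entries had an unadjusted p under 0.05. The cause was not tested. Of the 16 called entries, 11 were called again with DESeq2 and 14 without saline replicate 2, where 35 were called in all. The 5p log2 ratio of -0.68 was -1.05 with library totals, -0.92 with upper quartile scaling and -0.44 over the entries kept by filterByExpr. With libraries left out, the fold change (log2) ran from -0.80 to 0.16 for miR-6944-3p, from -0.87 to 0.024 for miR-6945-3p and from -0.31 to 0.39 for miR-6896-5p. The last was also above 0 without the authors' predicted miRNAs (0.0097). The 3p log2 ratio of -0.27 stayed between -0.74 and -0.014. The replicate numbers are not stated to mark anything that libraries have in common, and the deviations of same-numbered libraries correlated at -0.23, -0.28 and 0.14. With a replicate block, 1 entry was higher, 7 were lower and 1 had an adjusted p under 0.05, the 8 called were all among the 16, and miR-6896-5p was at 0.031. Over all miRNAs 179 were called with the block, against 264 without it. Low depth is 1 limit, with under 10 counts for 156 of 250 entries.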
